A study of Arabidopsis thaliana with 12 samples.

Results

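Chlorophyll is made from a tetrapyrrole ring and a long isoprenoid tail, and the genes described here encode 1 enzyme for each. AT1G74470 encodes geranylgeranyl reductase, which saturates the geranylgeranyl chain to the phytyl tail that is carried by chlorophyll and used for tocopherol. CHLM (AT4G25080) encodes magnesium-protoporphyrin IX methyltransferase, which moves a methyl group from S-adenosylmethionine to the ring just after magnesium has been inserted. Both enzymes work in plastids, and free tetrapyrrole intermediates make reactive oxygen in light, so plants are known to keep supply of ring and tail under tight control. The 2 genes were taken by name from the 3439 rows of the array table, of which 692 carry a single named gene. A further 870 rows list several genes and 1877 list none. Among the named rows, each of the 2 genes had 1 row to itself and shared no row with another gene. The gene models list 1 transcript for AT1G74470 and 6 for CHLM, and a row does not tell the transcripts of a gene apart.

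RNA was measured on expression arrays in Arabidopsis thaliana wild type of the Columbia 0 ecotype. The water group holds 6 samples from plants kept in water for 8 h. The treated group holds 6 samples from plants that had 2 µM staurosporine, a broad inhibitor of protein kinases, for 4 h, after which they had ascorbate for 4 h at 25 mM and pH 5.5. Neither compound was given alone and no group had the pH without ascorbate, so their effects cannot be told apart. The labels give no tissue, age or source of the replicates, and the spread behind each p-value, taken over these samples, may therefore be technical.

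Array means lay between 0.857 and 1.04 intensity units, and 10.3% to 15.2% of rows were listed at 0 on an array. The number of arrays limits the precision. Arrays with adjacent numbers in a group (1 and 2, 3 and 4, 5 and 6) were more alike than other arrays of that group. Correlations of their deviations from the group mean lay between -0.09 and 0.64, against at most -0.20 for other pairs. Deviations from a shared mean are pulled towards correlations below 0, so only the contrast between pairs is read. Numbers 5 and 6 were the most alike (0.64 in water, 0.50 after treatment), while other adjacent numbers reached at most 0.14. The labels do not say what arrays with adjacent numbers share, and results that change when these arrays are averaged are marked below. Of 11 leaf marker genes fixed as a list, 2 had a row of their own. The phosphoribulokinase gene PRK lay between 0.430 and 0.760 in water and between 0.451 and 0.659 after treatment. SBPASE read 0 on each of the 12 arrays, so the summed level of these 2 rows is that of PRK. The leaf marker RCA shared 2 rows with AT1G73110, which is not in the list. The brighter of them stood at 1.37 ± 0.111 in water and 1.45 ± 0.143 after treatment (SD, n = 6 each), and the other read 0 on 11 arrays. None of 8 root marker genes had a row of its own, and the part of tissue make-up in the results was not tested. In total RNA, fewer cells of a type and less RNA per cell cannot be told apart.

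The first question was whether RNA of the tail enzyme differed between treated and water plants. Transcripts of AT1G74470 rose 1.88-fold. In water, its intensity was 1.08 on the lowest array, 1.32 at the median and 1.61 on the highest. After treatment it was 1.89 on the lowest array, 2.50 at the median and 3.44 on the highest. The groups did not overlap, and even the dimmest treated array was above the brightest water array. Non-overlapping groups with treated arrays higher occurred in 10.1% of all rows of the table, and non-overlap in either direction in 19.8%.

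Group means of the deposited intensities of AT1G74470 were 1.34 ± 0.192 in water and 2.53 ± 0.634 after treatment (SD, n = 6 each). The spread relative to the mean was 14.3% in water and 25.0% after treatment. On the normalized log2 scale the difference was 0.91 ± 0.0923 (SE, treated minus water). It had a 95% interval from 0.71 to 1.12 and a limma adjusted p of 3.12e-05. In fold terms the interval ran from 1.64 to 2.17. A rise at an adjusted p under 0.05 was found in 16.7% of all 3439 rows, and in 15.6% of the rows with a single gene. A log2 fold change as large as that of AT1G74470 or larger was found in 8.96% of rows with a single gene, where the gene ranked 62 of 692 from the highest.

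As its groups did not overlap, AT1G74470 was bound to be higher after treatment in all 6 same-numbered pairs of arrays. The size of the rise in these pairs was 0.75 to 1.18 on the normalized log2 scale. Averaged over adjacent numbers, the log2 difference was 0.88 for numbers 1 and 2, 1.09 for numbers 3 and 4 and 0.77 for numbers 5 and 6. In deposited intensities, which carry no scaling between arrays from this work, the corresponding ratios were 2.04, 2.16 and 1.45. Numbers 5 and 6 thus had the smallest rise on both scales. With adjacent numbers averaged, the limma adjusted p was 0.0132. It was 0.0515 when these pairs were also a block in the fit, which ended the call.

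**Figure D1:**
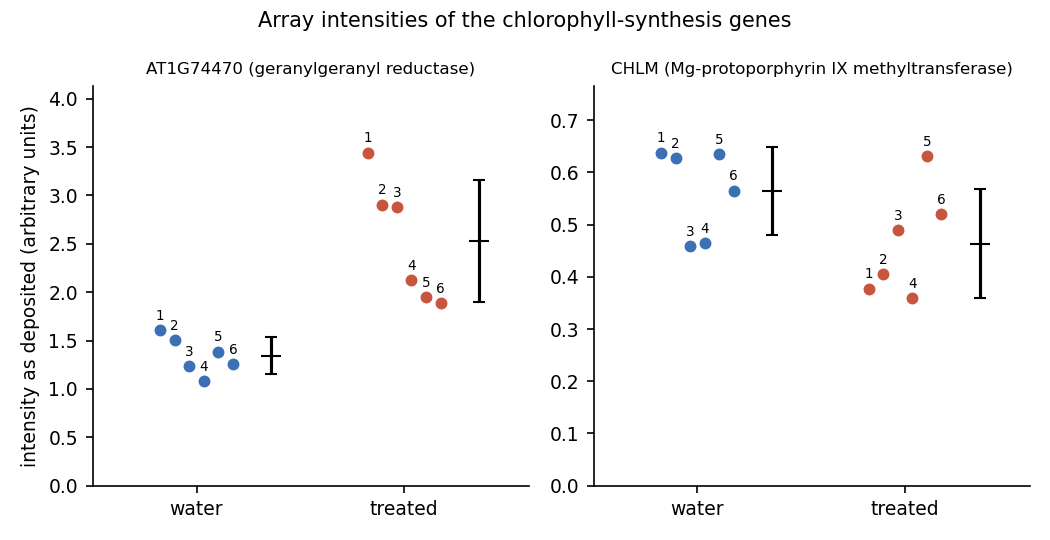
Deposited intensity (arbitrary units, linear axes from 0) of AT1G74470 and CHLM on each array, numbered by replicate; black bars give the mean ± SD of 6 arrays. For AT1G74470 the treated arrays lie between 1.89 and 3.44, all above the water arrays, whereas the CHLM groups overlap.

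The second question was whether the ring enzyme differed too. For CHLM no difference was called. Its intensity in water was 0.459 on the lowest array, 0.596 at the median and 0.638 on the highest. After treatment it was 0.359 on the lowest array, 0.447 at the median and 0.631 on the highest. Treated replicates 1, 2 and 4 lay below every water array, while treated replicate 5 stood level with the brightest water arrays. The groups therefore overlapped.

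Group means of CHLM were 0.565 ± 0.0842 in water and 0.464 ± 0.104 after treatment (SD, n = 6 each). The normalized log2 difference was -0.18 ± 0.116 (SE), with a limma adjusted p of 0.278. Its 95% interval, from -0.44 to 0.08, spans a 1.35-fold lower level and a 1.05-fold higher one. A change of the size seen for AT1G74470 lies outside this interval in either direction, but a modest fall does not. With adjacent numbers averaged the interval was wider, from -0.56 to 0.20. It ran from -0.70 to 0.34 when these pairs were also a block in the fit. A log2 difference of at least the size seen for CHLM, in either direction, was found in 76.1% of all rows.

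The low CHLM values were not spread evenly over the arrays. Same-numbered pairs gave log2 differences of -0.61 and -0.46 for numbers 1 and 2, 0.22 and -0.15 for numbers 3 and 4, and 0.04 and -0.12 for numbers 5 and 6. CHLM was thus lower after treatment in 4 of 6 pairs, with the 2 largest falls in the adjacent numbers 1 and 2. Without replicates 1 and 2 of both groups, the log2 difference was -0.0016, with an interval from -0.28 to 0.28 (limma adjusted p 1.0). With intensities as deposited it was -0.30 (limma adjusted p 0.170).

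The third question was whether the responses of the genes differed from each other. Within each array the log2 ratio of AT1G74470 to CHLM was taken from normalized values. A factor shared by all rows of an array drops out of it, but quantile normalization can change the ratio. Only its change between groups can be read, since the brightness of different rows is not on a common scale. In water the ratio was nearly constant, between 1.18 and 1.38, with a mean of 1.28 ± 0.0684 (SD, n = 6). After treatment it lay between 1.96 and 2.89, with a mean of 2.38 ± 0.320 (SD, n = 6). The groups did not overlap. With intensities as deposited the ratio spread more widely, from 1.12 to 1.43 in water and from 1.63 to 3.19 after treatment, again without overlap.

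The ratio rose by 1.09 ± 0.133 (SE) on the log2 scale, which is 2.13-fold, with p = 0.00216 in an exact two-sided permutation test over 924 splits of the arrays, the smallest p they can give. This rise is the AT1G74470 difference (0.91) less the CHLM difference (-0.18), so it mostly restates the former. Groups did not overlap in 19.8% of single rows, and the share among ratios of other rows was not tested. Without overlap, the ratio was bound to be higher in all 6 same-numbered pairs. Among treated arrays, numbers 1 and 2 had the highest ratios (2.89 and 2.56), numbers 3 and 4 followed (both 2.34), and numbers 5 and 6 had the lowest (1.96 and 2.17). These treated arrays spread over a wider range than the water arrays. With adjacent numbers averaged, 3 values against 3 cannot give an exact permutation p below 0.1, and this was the p found.

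**Figure D2:**
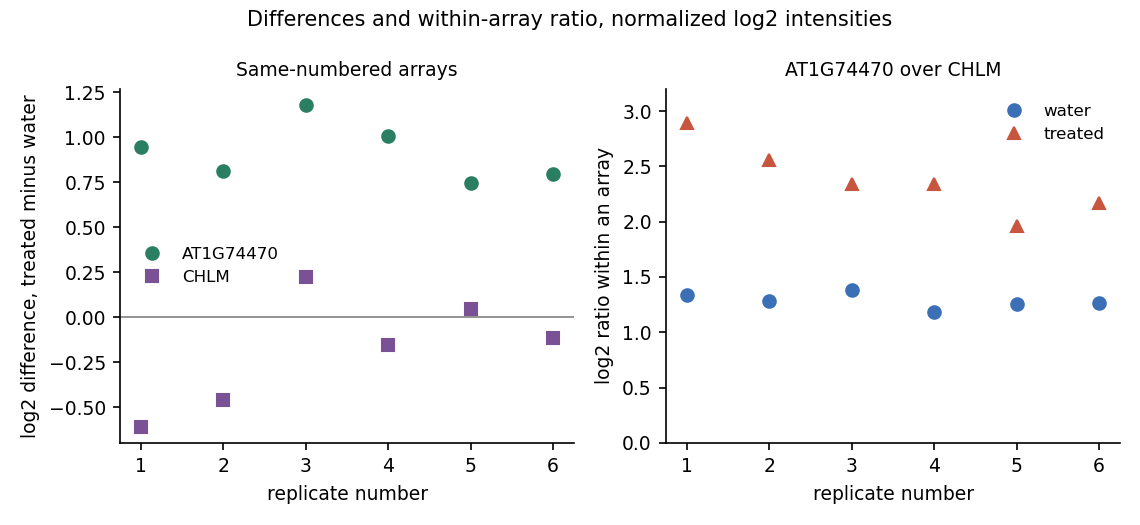
Left, the treated minus water difference in normalized log2 intensity for each replicate number. Right, the log2 ratio of AT1G74470 to CHLM on each array, also from normalized values. AT1G74470 is above 0 at every number and CHLM lies on both sides of 0, and the treated ratios (1.96 to 2.89) all exceed the water ratios (1.18 to 1.38).

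Other genes of chlorophyll and isoprenoid metabolism were taken from 9 lists with 132 genes. Of these genes, 6 had a row of their own, AT1G74470 and CHLM included. The other 4 were 1 gene that rose, 2 that fell and 1 that did not pass, with a median log2 fold change of -0.64 against 0 over all rows. Among all 3439 rows 32.9% passed in either direction, and 31.1% of rows with a single gene. A further 5 rows were shared by several genes that all stand in these lists, of which 1 rose, 1 fell and 3 did not pass. A shared row cannot be assigned to any of its genes. No gene for plastid isoprenoid precursors, chlorophyll breakdown, S-adenosylmethionine supply or regulators of chlorophyll genes had a row of its own. The 1877 rows with no gene listed could not be searched.

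Early steps of ring synthesis were seen through shared rows. The row of HEMB1 and hemb2, genes for the dehydratase that joins aminolevulinate into the first pyrrole, rose from 0.580 ± 0.10 to 0.711 ± 0.0887 in intensity (SD, n = 6 each; limma adjusted p 0.00467). It ran from 0.463 to 0.729 in water, with a median of 0.569, and from 0.628 to 0.881 after treatment, with a median of 0.680, so the groups overlapped. The log2 difference was 0.41 ± 0.0879 (SE). This call was lost in 5 of 29 alternatives, among them intensities as deposited (limma adjusted p 0.0802) and the fit with adjacent numbers averaged (0.0840). The row of HEME1 and HEME2, for the decarboxylase that forms coproporphyrinogen, stood at 0.465 ± 0.0387 in water and 0.386 ± 0.0745 after treatment (SD, n = 6 each), and did not pass (limma adjusted p 0.405).

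A side branch of the ring pathway was seen through a single gene. SIRB encodes a sirohydrochlorin ferrochelatase, which inserts iron to make siroheme, the cofactor of nitrite and sulfite reductases. Its intensity in water was 0.317, 0.364 and 0.425 on the lowest, median and highest arrays. After treatment it was 0.558, 0.720 and 1.01, and the groups did not overlap. SIRB rose 2.26-fold, a log2 difference of 1.18 ± 0.141 (SE; limma adjusted p 0.000104). As with AT1G74470, a fit with averaged adjacent numbers as a block ended the call (limma adjusted p 0.0867). The rise of SIRB was largest in numbers 5 and 6, with a log2 difference of 1.67, against 1.07 in numbers 1 and 2 and 0.78 in numbers 3 and 4.

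LIL3 proteins are light-harvesting-like membrane proteins known to bind geranylgeranyl reductase and hold it at the thylakoid, which makes their rows of interest beside AT1G74470. The genes LIL3:1 and LIL3:2 share 2 rows, called A and B here, and the rows differed. Row A fell from 0.986 ± 0.169 to 0.478 ± 0.158 (SD, n = 6 each). It ran from 0.781 to 1.22 in water, with a median of 1.01, and from 0.301 to 0.660 after treatment, with a median of 0.468, without overlap. The log2 difference was -0.98 ± 0.157 (SE; limma adjusted p 0.000796). Without overlap, row A was bound to be lower in all 6 same-numbered pairs. With replicates 1 to 3 alone the call was lost (limma adjusted p 0.0578).

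Row B of the LIL3 genes stood at 0.474 ± 0.0576 in water and 0.391 ± 0.135 after treatment (SD, n = 6 each) and did not pass (limma adjusted p 0.421). Its values overlapped between groups, from 0.414 to 0.572 in water and from 0.246 to 0.603 after treatment. Its averaged log2 differences were -0.51 in numbers 1 and 2, -0.15 in numbers 3 and 4 and 0.05 in numbers 5 and 6. Which of the LIL3 genes each row reports is not known here, and a difference between the rows in response was not tested. Rows lower than water were called in 16.2% of the table, and non-overlapping groups with treated arrays lower occurred in 9.74%.

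**Figure D3:**
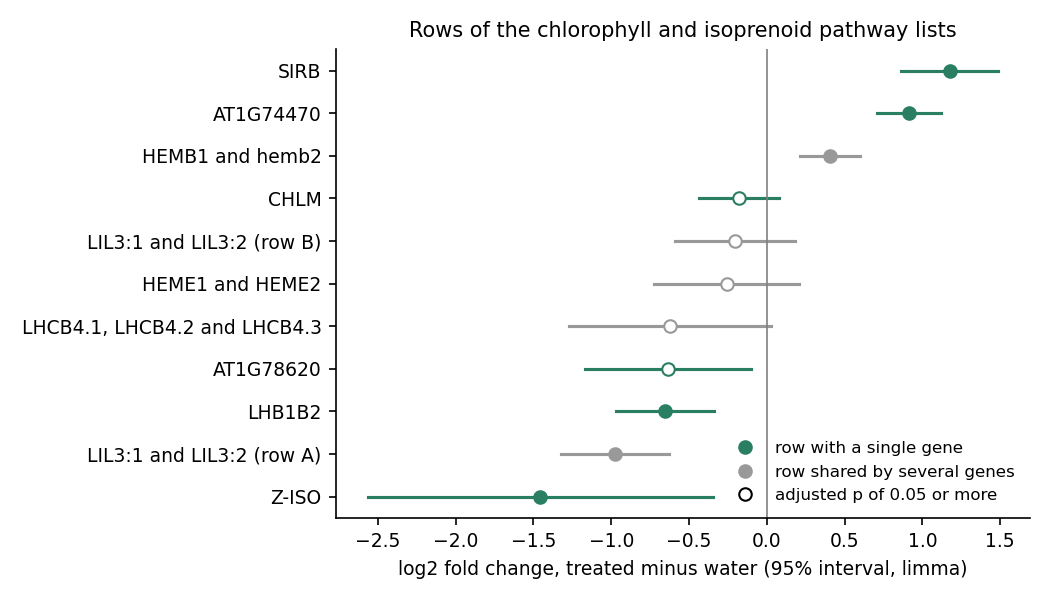
Log2 fold change (treated minus water) with its 95% interval from limma for the 11 rows of the pathway lists; green marks rows with a single gene, grey rows shared by several genes, and open circles an adjusted p of 0.05 or more. SIRB (1.18), AT1G74470 (0.91) and the HEMB row (0.41) lie above 0. All other rows have estimates below 0, of which LHB1B2, row A of the LIL3 genes and Z-ISO passed the threshold.

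Genes of isoprenoid products other than the phytyl tail were few. Z-ISO encodes zeta-carotene isomerase, an enzyme of carotenoid synthesis that draws on the same geranylgeranyl precursor. Its intensity was 0.796, 1.097 and 1.45 on the lowest, median and highest water arrays, and 0.0886, 0.428 and 0.932 on the treated arrays. Z-ISO was lower in 6 of 6 same-numbered pairs although the groups overlapped, and in both groups numbers 5 and 6 had the highest values. It fell by 1.46 ± 0.504 (SE) on the log2 scale with a limma adjusted p of 0.0462. This call was lost in 16 of 29 alternatives, among them each of the 6 fits without 1 water array, and the adjusted p was 0.254 with adjacent numbers averaged.

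AT1G78620, listed with tocopherol and phytol recycling, stood at 0.978 ± 0.219 in water and 0.637 ± 0.329 after treatment (SD, n = 6 each). Its log2 difference of -0.63 ± 0.242 (SE) did not pass (limma adjusted p 0.0666). Treated replicate 1 had the highest value of all 12 arrays, 1.23, and the treated median was 0.524 against 1.103 in water. Without that array the log2 difference was -0.82 (limma adjusted p 0.00564), and the threshold was passed in 4 of 29 alternatives in all. Its averaged log2 differences were -0.08, -0.65 and -1.17 in numbers 1 and 2, 3 and 4, and 5 and 6.

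Antenna proteins bind the finished chlorophyll. LHB1B2, an antenna gene of photosystem II, ran from 1.37 to 2.97 in water, with a median of 2.18, and from 1.15 to 1.39 after treatment, with a median of 1.29. The treated arrays were close together while the water arrays spread by adjacent number, and the groups overlapped only at the edge. LHB1B2 fell by 0.65 ± 0.143 (SE) on the log2 scale (limma adjusted p 0.00512). The limma adjusted p was 0.109 with adjacent numbers averaged and 0.0508 with median centring of the arrays. With replicates 4 to 6 alone the log2 difference was -0.39 (limma adjusted p 0.236). The row shared by LHCB4.1, LHCB4.2 and LHCB4.3, minor antenna genes, stood at 0.405 ± 0.0597 and 0.267 ± 0.148 (SD, n = 6 each) and did not pass (limma adjusted p 0.134).

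**Figure D4:**
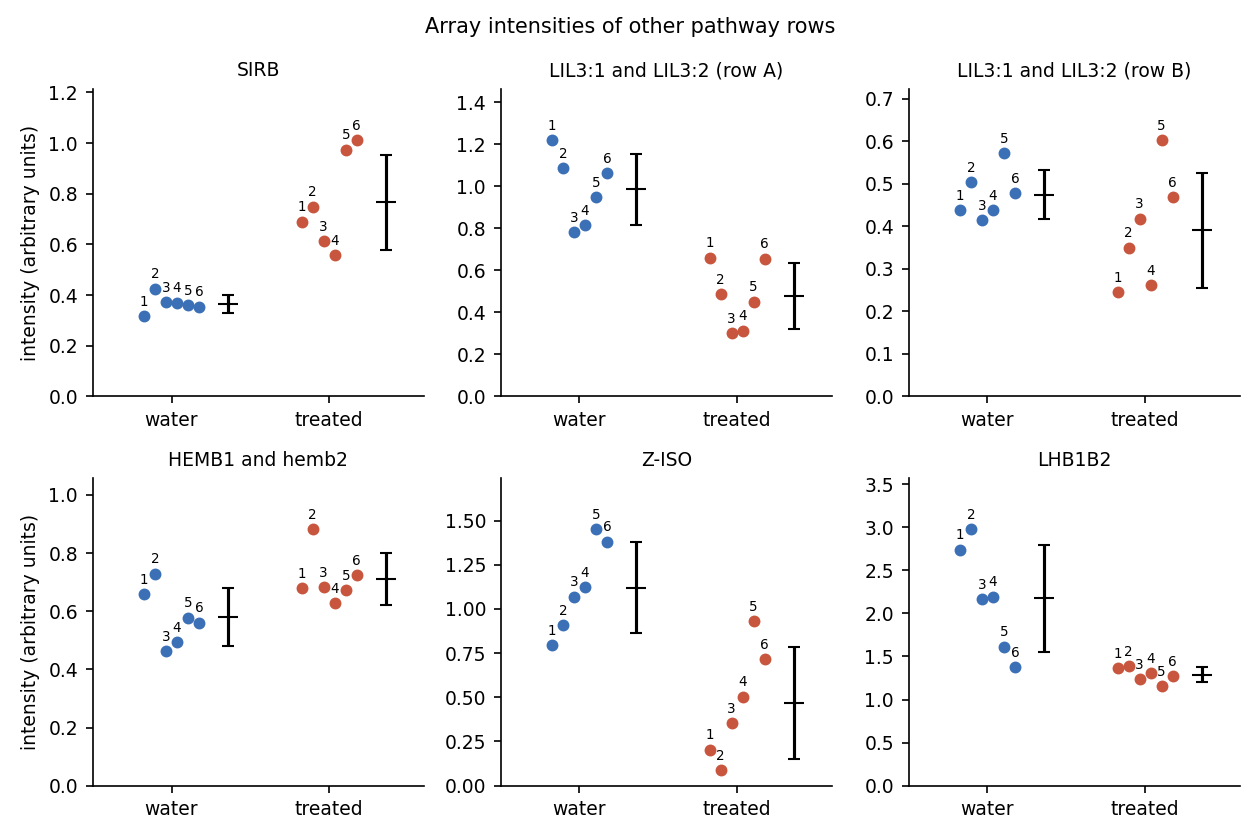
Deposited intensity (arbitrary units, linear axes from 0) on each array, numbered by replicate, for SIRB, rows A and B shared by the LIL3 genes, the row shared by HEMB1 and hemb2, Z-ISO and LHB1B2; black bars give the mean ± SD of 6 arrays. SIRB and row A of the LIL3 genes separate the groups fully, and in Z-ISO and LHB1B2 the adjacent numbers lie close together within the water group.

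Rows with a pattern most like that of each gene were sought among 544 other rows with a single gene that were above 0 on all 12 arrays, by Pearson's r of normalized log2 intensity over the 12 arrays. These values are descriptions, since the arrays share the treatment and any row that parts the groups correlates with another that does. For AT1G74470 the closest were AT1G72020 (r 0.94), AT3G32930 (0.94), AT1G67820 (0.93), AT3G58610 (0.93) and AT5G05400 (0.93). All of these 5 were higher after treatment, by 0.54 to 1.85 on the log2 scale. For CHLM the closest were AT4G18180 (r 0.87), AT1G18060 (0.85), AT1G07040 (0.85), AT4G34310 (0.81) and GH9B12 (0.79), all with lower treated means. The fall passed the threshold for AT1G07040, AT4G34310 and GH9B12, but not for AT4G18180 (limma adjusted p 0.460) or AT1G18060 (0.0967). The r of AT4G18180 was 0.54 with intensities as deposited.

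Each array was also taken as its deviation from the group mean. This removes the mean difference between groups, but not uneven levels among the treated arrays. For CHLM the normalized SD was 0.117 in water and 0.265 after treatment. By deviation, CHLM stayed close to AT1G07040 (r 0.91), AT4G18180 (0.85) and AT1G18060 (0.82), which were also among its 5 closest rows by level. The closest rows to AT1G74470 by deviation were AT2G18920 (r 0.84), AT3G02030 (0.78) and SEH1H (0.76). None of these 3 was among its 5 closest by level. These deviations still share the likeness of adjacent arrays.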

How the data were processed

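The deposited table holds 1 linear intensity for each of 3439 rows on each of 12 arrays. The scanner, background correction and scaling behind these values are not given in the sources used here, and what a 0 stands for is not stated. Groups and replicate numbers came from the sample titles. Rows were named through the platform annotation, which can be old, and the TAIR10.1 gene table. No coordinates or sequences are printed.

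A floor of 0.0157, taken from the 1st percentile of positive intensities, replaced each 0 before log2 was taken. Array medians ranged over 0.47, so arrays were quantile-normalized, which removes any shift common to most rows. The comparison used lmFit and eBayes of limma 3.58.1 in R 4.3.3, with group alone in the design. P-values were adjusted over 3439 rows by Benjamini-Hochberg, with a threshold of 0.05. Group means are of deposited intensities. The fit was checked on simulated data with independent arrays, so that check does not cover the likeness of adjacent or same-numbered arrays. Figures used matplotlib 3.10.9.

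Between the groups, arrays of 1 number had correlated deviations (r 0.302 to 0.425, above the limit of 0.1). A replicate block was therefore run as an alternative, while the main fit had group alone and was not paired. Pairing by number comes from the values, not the labels, and the values do not clearly single it out for numbers 5 and 6. Water replicate 6 was closer to treated replicate 5 (r 0.336) than to treated replicate 6 (0.323). Water replicate 5 with treated replicate 6 (0.209) was above the limit too. Genes named are AT1G74470, CHLM, genes of the lists with a row of their own, shared rows of those lists, and the rows most alike to each of the 2 genes (5 by level, 3 by deviation). Alternatives covered the scaling, the floor, a pseudocount of 0.144, a filter on the dimmest 25% of rows, the variance model, array weights, the replicate block, a rank-sum test, adjacent arrays averaged or as a block, and arrays left out. Members, lists and alternatives were chosen with earlier results of these data known.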

Additional observations from a re-analysis of the deposited data

How the results depend on the processing

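Over 29 alternatives, AT1G74470 kept its direction and stayed past the threshold in 28, with log2 differences between 0.79 and 1.07. The exception was averaged adjacent numbers with the pair as a block (0.91, limma adjusted p 0.0515), a fit with fewer values. CHLM was not called in any of 29, with differences between -0.30 and -0.0016. Without 1 array, AT1G74470 ranged from 0.86 to 0.97 and CHLM from -0.26 to -0.12. The within-array ratio kept its direction in 18 of 18 alternatives, but most of these could not reverse it. Groups without overlap keep their direction when arrays are left out, averaged or blocked. With intensities as deposited the ratio difference was 1.19. The higher floor was set on deposited intensities without normalization, and neither gene lay below it, so it gave that value again. With adjacent numbers averaged, the ratio difference was 1.09 with the smallest exact p possible, 0.1, and without 1 array it ranged from 0.99 to 1.18. The replicate block changed no call of AT1G74470 (0.91, limma adjusted p 0.000445), CHLM (-0.18, 0.305) or the ratio (1.09, exact sign-flip permutation p 0.0312, the smallest that 64 sign flips can give). Rows called in the whole table numbered 1131, with 1252 under the replicate block, 753 with adjacent numbers as a random block, 418 with their means, 211 with the pair also as a block, 699 with replicates 1 to 3 alone, 621 with replicates 4 to 6 alone, and 1010 to 1158 without 1 array. Fewer arrays or values enter each of these fits other than the replicate block and the random block. The random block took adjacent arrays of a group as correlated (0.51), and the SE of AT1G74470 was 0.134 against 0.0923 in the main fit. The part of this correlation in the drop of calls was not tested. Without normalization, 39.2% of called rows were higher, against 50.7%. Of the 6 pathway genes with their own row 4 were called (32.9% of all rows), 3 with median centring (28.7%) and 2 with adjacent numbers averaged (12.2%). The HEME row had a difference of 0.0185 without replicates 5 and 6, and PRK of 0.0266 with replicates 1 to 3 alone, each opposite in sign to that with all arrays; the cause was not tested. Leaving out adjacent numbers was chosen after seeing the data. Signal over background is unknown and limits what can be said of dim rows.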
